A study of Rattus norvegicus with 16 samples.

Results

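Voltage-gated calcium and sodium channel genes were followed in the hypothalamus of rats that were restrained, inhaled the odorant (R)-(-)-linalool, or both. The members were every probe set of the rat expression array (a group of short oligonucleotides designed to report 1 transcript) whose only gene symbol in the platform annotation begins with Cacna, Cacnb or Cacng, or with Scn and a digit. This gave 52 probe sets for 36 genes, of 31042 probe sets and 14217 singly named genes in all. The 16 arrays came from male Wistar rats aged 7 to 8 weeks, 4 in each of 4 groups: control (neither exposure), restraint alone, linalool inhalation alone, and restraint during linalool inhalation, with exposures lasting 2 h. Each array measured total RNA of the hypothalamus, which holds many cell types.

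A voltage-gated calcium channel is built around a pore-forming alpha-1 subunit, a single protein that senses membrane voltage and conducts calcium. Alpha-2-delta and beta subunits carry the pore to the membrane and tune its gating, and the gamma genes include both a muscle channel subunit and proteins better known for carrying AMPA receptors to the synapse. A voltage-gated sodium channel likewise has a pore-forming alpha subunit, which starts and propagates the action potential, and beta subunits that modify gating and adhere to other cells. In hypothalamic neurons these channels set firing and calcium-dependent release of hormones and transmitters. Linalool has been described as an inhibitor of voltage-gated channels in isolated neurons, which concerns the protein and not the amount of its RNA.

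Of the 5 genes used to check the restraint labels (Sgk1, Fkbp5, Per1, Hspa1a and Fos), all 5 rose with restraint averaged over odour, Sgk1 by 2.17 and Hspa1a by 3.70 on the log2 scale (limma, adjusted p = 3.81e-10 and 4.35e-05). At adjusted p under 0.05, 4 of the 5 were higher for restraint against control and all 5 for restraint under linalool. The exception was Fos, at 0.62 without linalool (limma, adjusted p = 0.390). The deposited arrays had medians of 67.0 to 127 signal units and were therefore brought to 1 distribution. On 3 arrays (linalool rats 2 and 4, and rat 2 of the group given both) the BioC hybridisation spike-in read 884 to 1014, against 201 to 271 on the other 13. The arrays of control rats 1 and 2 correlated least with the others (median correlation 0.967 and 0.965, against 0.971 to 0.980), and control rat 1 had the highest 3'/5' ratio of beta-actin, 4.93, over a range from 2.08. Of the hypothalamus markers on the array 10 of 14, among them Avp, Oxt, Crh and Hcrt, were at or above the level filter used below, whereas Pomc, Sim1, Otp and Nr5a1 were not. All 10 neuron markers were above it, as were 7 of 7 astrocyte, 6 of 6 oligodendrocyte, 3 of 3 oligodendrocyte precursor, 8 of 8 microglia, 7 of 7 endothelial, 3 of 7 pituitary, 2 of 8 striated muscle, 0 of 5 photoreceptor and pineal, 1 of 3 sensory neuron, 3 of 4 choroid plexus and 4 of 5 thalamus markers. With restraint averaged over odour, 4 markers were called by limma at adjusted p under 0.05, all lower. On the log2 scale P2ry12 fell by 1.00 and Cx3cr1 by 0.49 (microglia, adjusted p = 0.000237 and 0.00603). Opalin fell by 0.76 (oligodendrocytes, adjusted p = 0.0305) and Slco1a4 by 0.34 (endothelium, adjusted p = 0.0472). These are 25% of the tested microglia, 16.7% of the oligodendrocyte and 14.3% of the endothelial markers, beside 4.21% of all probe sets that reached the filter. The lists of these markers held both signs: 4 of 8 microglia, 2 of 6 oligodendrocyte and 3 of 7 endothelial differences were above 0, with medians of 0.026, -0.060 and -0.029. Of the lists without a call, 7 of 7 astrocyte, 5 of 10 neuron, 4 of 10 hypothalamus and 0 of 4 thalamus differences were above 0. Their medians were 0.093, -0.00043, -0.023 and -0.12.

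The members differed first in whether their level was high enough to be kept for testing. Levels are given as log2(normalised signal + 16), and a probe set was kept for testing when its mean over the 16 arrays reached 6.26, the 40th percentile of all probe sets, a rule that does not use the groups. By this rule 28 of the 52 channel probe sets, for 21 of the 36 genes, were kept, and 24 probe sets were not. Just above the filter were Cacna1a (1367821_a_at) at 6.62 and Cacnb2 (1388023_a_at) at 6.43, and just below it another Cacna1a probe set (1395062_at) at 6.22 and Cacnb4 at 6.03. Since a probe set's brightness also depends on its own sequence, a level below the filter is not evidence that the gene was silent, and levels are not compared between probe sets.

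Among the calcium channel pores, 7 of 20 probe sets and 6 of 10 genes were kept. They were Cacna1a (the P/Q-type pore of presynaptic terminals), Cacna1b (N-type, also presynaptic), Cacna1c and Cacna1d (the L-type pores of neurons) and Cacna1g and Cacna1h (low-threshold T-type). Not kept were Cacna1e (R-type), Cacna1i (the remaining T-type pore), Cacna1f (the retinal L-type pore) and Cacna1s (the skeletal muscle pore). Cacna1a was covered by 5 probe sets, of which 1 was kept.

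Among the sodium channel pores 5 of 9 genes were kept, each with 1 probe set: Scn1a, Scn2a and Scn3a, the brain-type pores, Scn7a, the sodium-level sensor known from circumventricular organs, and Scn9a, best known from sensory neurons and also found in hypothalamic neurosecretory cells. Scn4a (skeletal muscle) and Scn10a and Scn11a (sensory neurons) were not kept, and neither was Scn8a, a pore of the axon initial segment and nodes. The 5 kept sodium pores lie in 1 cluster in RefSeq's gene order (assembly GRCr8): Scn3a next to Scn2a, then 4 other coding genes, then Scn1a, Scn9a and Scn7a side by side. Scn10a and Scn11a, with 1 coding gene between them, lie elsewhere.

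The auxiliary genes, like the pores, were not divided by the filter according to known tissue alone. Of the calcium auxiliary genes 7 of 14 were kept (11 of 18 probe sets): Cacna2d1 and Cacna2d3, which encode alpha-2-delta proteins, Cacnb1, Cacnb2 and Cacnb3, which encode beta subunits, and Cacng2 and Cacng3, AMPA receptor partners. The muscle gene Cacng1 was not kept, nor were Cacnb4, Cacng4, Cacng5, Cacng6, Cacng7 and Cacng8, several of which are known as brain genes. Both runs of adjacent gamma genes, Cacng6, Cacng8 and Cacng7 and then Cacng1, Cacng4 and Cacng5, fell wholly below the filter. All 3 sodium auxiliary genes on the array were kept with all 5 probe sets: Scn2b and Scn4b, which are neighbours and bond covalently to the pore, and Scn3b, which does not.

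**Figure D1:**
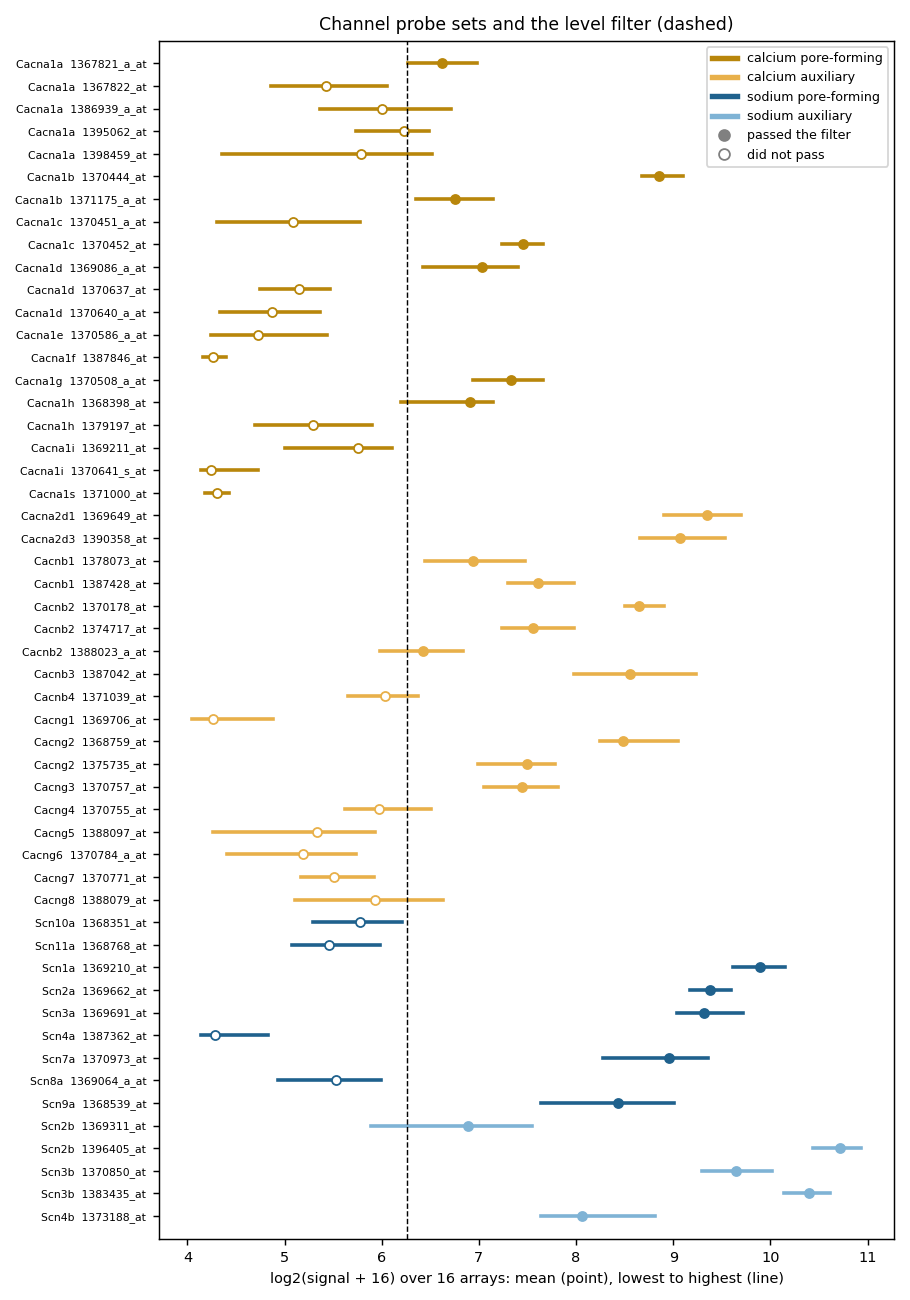
Level of each of the 52 channel probe sets, as log2(signal + 16) over 16 arrays (point: mean; line: lowest to highest). The dashed line is the filter at 6.26; filled points are the 28 probe sets kept and open points the 24 not kept, coloured by subunit class.

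Upstream sequence was examined in RefSeq's windows of 250 bases before each gene's annotated start (GRCr8), which were present for 26 of the 36 genes; where several starts were listed the first was used. CG dinucleotides numbered 1 to 56 in the windows of the 16 kept genes (median 18.5), 1 to 53 in those of the 10 genes not kept (median 5.5) and 0 to 56 in all 33469 windows (median 5). Kept genes outside the channels were not counted apart, so whether this difference is particular to the channels was not tested. The windows are printed for the 3 genes that came nearest to a call for restraint averaged over odour, Scn9a, Cacna1a and Cacna1d, to show how different their upstream sequence is; capitals mark CG.
Scn9a, chr3:71701378-71701627, minus strand: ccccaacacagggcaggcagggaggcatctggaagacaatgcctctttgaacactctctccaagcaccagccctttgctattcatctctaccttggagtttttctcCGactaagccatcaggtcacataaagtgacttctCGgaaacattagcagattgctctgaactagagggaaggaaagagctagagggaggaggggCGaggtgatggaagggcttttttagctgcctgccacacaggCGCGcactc
Cacna1a, chr19:40650469-40650718, minus strand: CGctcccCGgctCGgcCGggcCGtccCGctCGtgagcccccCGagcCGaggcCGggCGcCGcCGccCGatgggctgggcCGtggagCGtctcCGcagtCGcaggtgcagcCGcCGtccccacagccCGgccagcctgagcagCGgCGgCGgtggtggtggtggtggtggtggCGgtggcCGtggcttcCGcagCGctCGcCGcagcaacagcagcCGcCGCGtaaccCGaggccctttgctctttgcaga
Cacna1d, chr16:5527550-5527799, minus strand: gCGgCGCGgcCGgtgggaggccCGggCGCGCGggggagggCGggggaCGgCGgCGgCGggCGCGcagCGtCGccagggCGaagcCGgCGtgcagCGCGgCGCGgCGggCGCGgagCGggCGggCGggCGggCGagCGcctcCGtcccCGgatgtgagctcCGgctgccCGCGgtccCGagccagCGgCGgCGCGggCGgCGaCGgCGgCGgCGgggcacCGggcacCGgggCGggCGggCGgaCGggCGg
The Scn9a window held 5 CG dinucleotides, at the median of all windows, whereas Cacna1a held 34 and Cacna1d held 56, the most found in any window.

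Motifs of transcription factors that act in stress and activity responses were searched on both strands of the same 26 windows. The cyclic AMP response element TGACGTCA was found in 0 of 26 (1.59% of all windows), and its shorter form TGACG, which lies within it, in 4 (15.4%, against 18.2% of all), those of Cacna1b, Cacna1c, Cacna2d1 and Scn10a. The glucocorticoid receptor motif AGAACA was in 3 (11.5%, against 17.5%), those of Cacng5, Scn2a and Scn4b. The AP-1 motif TGANTCA was in 1 (3.85%, against 6.34%), that of Scn3a, and the heat shock motif GAANNTTC in 0 (7.23% of all). The matches are descriptions of the letters in these windows.

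None of the channel genes passed the test in any comparison. The arrays were fitted together with limma, and a probe set was called at a Benjamini-Hochberg adjusted p under 0.05 over all 18625 kept probe sets. For restraint against control 0 of 28 channel probe sets were called, where 0.902% of all kept probe sets were, and 2 had an unadjusted p under 0.05 (12.6% of all). For restraint under linalool against linalool alone 0 of 28 were called (1.69% of all) and 4 were under 0.05 unadjusted (16.2%). For linalool against control the counts were 0 (0% of all) and 2 (9.83%), and for linalool among restrained rats 0 (0.65%) and 4 (12.6%). Restraint averaged over odour, the comparison with most calls elsewhere, gave 0 of 28 (4.21% of all) and 4 unadjusted (18.9%), linalool averaged over restraint 0 (0.714%) and 1 (14.8%), and the interaction 0 (0%) and 1 (7.99%). At these background shares 28 probe sets would hold about 1 call for restraint averaged over odour and fewer in the others, so the counts of 0 do not set the channels apart. RNA came from whole tissue, in which fewer cells of a type and less RNA per cell cannot be told apart.

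The intervals show what size of difference these arrays leave possible. In all 7 comparisons the 95% interval of each of the 28 differences, not adjusted for their number, lay within 1 log2 unit, a 2-fold difference in signal + 16, in either direction. So did 93.5% (interaction) to 99.5% (averaged linalool) of all kept probe sets. The interval lay within a 1.5-fold difference for 24 of 28 probe sets for restraint against control (84.2% of all kept probe sets) and 25 of 28 for restraint under linalool (82.8%). For linalool against control it did so for 22 of 28 (86.6%), and for linalool among restrained rats for 26 of 28 (84.7%). The counts were 27 of 28 for each of the averaged effects (94.0% for restraint and 95.3% for linalool) and 12 of 28 for the interaction (63.0%). The median difference over the 28 was -0.041 log2 for averaged restraint and 0.022 for averaged linalool, beside -0.011 and -0.0079 over all kept probe sets. For averaged restraint 12 of the 28 differences were above 0 and 16 below, and for averaged linalool 16 were above and 12 below. By class, the averaged restraint median was -0.0023 over 7 calcium pores, -0.079 over 11 calcium auxiliary, 0.014 over 5 sodium pores and -0.056 over 5 sodium auxiliary probe sets. For restraint under linalool 10 of 11 calcium auxiliary differences were below 0 (median -0.12), beside 6 of 12 pores and 2 of 5 sodium auxiliary. For linalool against control 9 of 11 were above 0 (median 0.082), beside 5 of 12 and 3 of 5. Both comparisons use the linalool rats, some probe sets share a gene, and these signs were not tested.

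**Figure D2:**
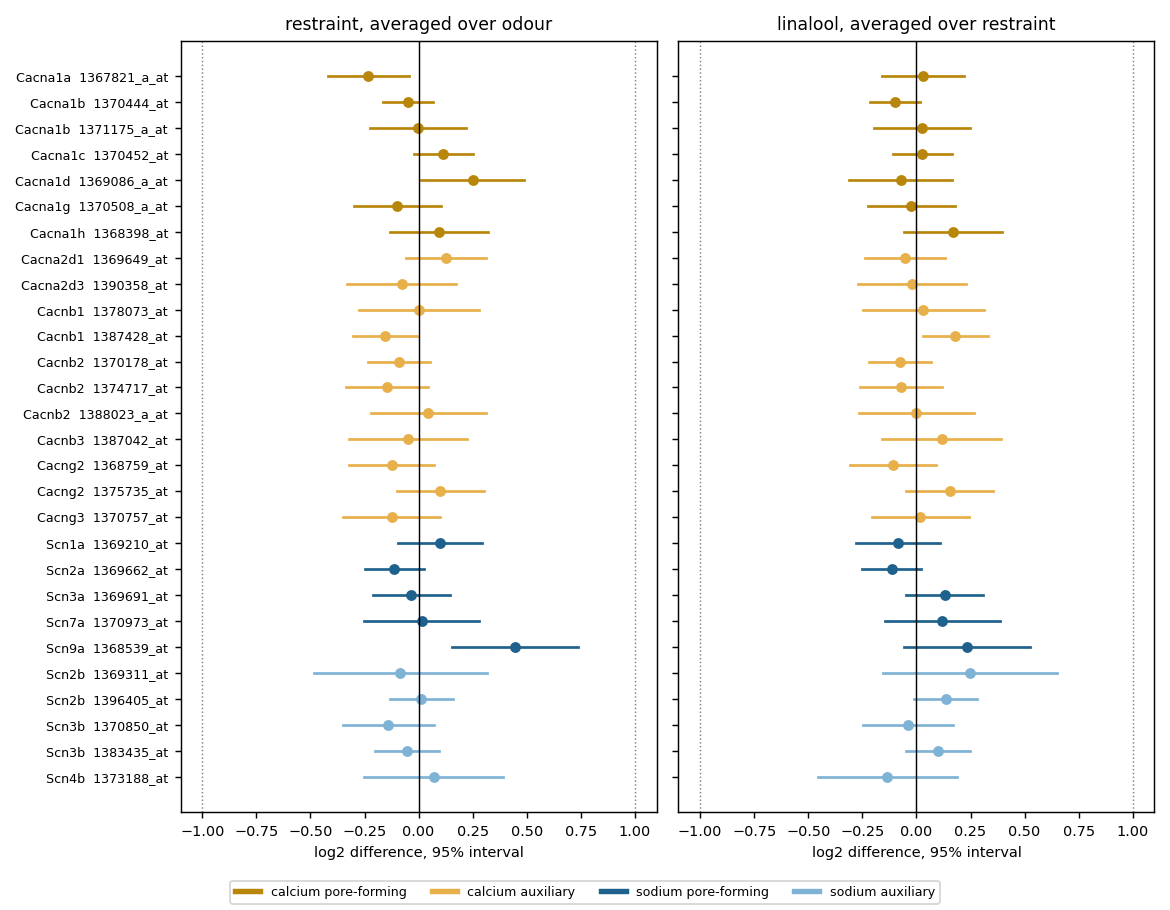
Difference in log2(signal + 16) for the 28 kept channel probe sets with its 95% interval, for restraint averaged over odour (left) and linalool averaged over restraint (right); dotted lines mark a 2-fold difference. All intervals lie within the dotted lines, and Scn9a lies farthest to the right for restraint, at 0.45.

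Scn9a came nearest to a call. For Scn9a the log2 level was 8.10, 8.29, 7.63 and 8.32 in control rats 1 to 4, 8.80, 8.55, 8.30 and 8.56 in the restrained rats, 8.09, 8.83, 7.92 and 8.53 in the linalool rats and 8.87, 9.01, 8.73 and 8.45 in the rats given both. The group means were 8.09 ± 0.32, 8.55 ± 0.20, 8.34 ± 0.41 and 8.77 ± 0.24 (SD, n = 4). All but 1 of the restrained rats were above every control rat, and the rats given both overlapped the linalool rats, whose levels split into a high and a low pair. The high pair, linalool rats 2 and 4, and the highest value of all, rat 2 of the group given both, came from the 3 arrays with the high spike-in signal. Averaged over odour the restraint difference was 0.45 (SE 0.14, 95% interval 0.15 to 0.74), or 1.36-fold, with a limma adjusted p = 0.0798. It was 0.46 without linalool (adjusted p = 0.331) and 0.43 with it (adjusted p = 0.289). These comparisons share no rats but share the estimate of spread. Scn9a was picked by their average, so their like size is not a separate check.

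Whether Scn9a was called depended on how the arrays were handled. With the spike-in split as a block the averaged difference was 0.51 (adjusted p = 0.0163), and on the 13 low arrays alone it was 0.57 (adjusted p = 0.0358). Without linalool rat 2 it was 0.53 (adjusted p = 0.0331). Over 29 alternative settings the difference ranged from 0.37 to 0.67 and the adjusted p from 0.00964 to 0.155, and it was called in 5. The 0.67 and 0.00964 came from the values as deposited, without normalisation, where the median of all probe sets shifted by 0.21. The summed signal of pituitary markers, of which 3 of 7 were kept, ranged from 266 to 6954 over the control rats, 4595 to 7099 over the restrained rats, 2838 to 4388 over the linalool rats and 2404 to 6090 over the rats given both. For sensory neuron markers, of which 1 of 3 was kept, the sums were 420 to 518, 453 to 551, 474 to 586 and 382 to 516. Their part in the Scn9a levels was not tested.

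Scn3a, an alpha subunit most abundant in the developing brain, had a different order of groups. For Scn3a the log2 level was 9.72, 9.19, 9.04 and 9.47 in control rats 1 to 4, 9.32, 9.07, 9.10 and 9.13 in the restrained rats, 9.25, 9.26, 9.40 and 9.36 in the linalool rats and 9.46, 9.53, 9.48 and 9.33 in the rats given both. The rats given both lay above all restrained rats, by 0.30 (SE 0.12, adjusted p = 0.296), while the control rats alone spanned the whole range. Once the 3'/5' ratio of beta-actin entered the fit this difference was 0.37 and was called (adjusted p = 0.0341), the only such call in 30 alternatives, over which the adjusted p ranged up to 1.00. The interaction was 0.33 (adjusted p = 0.640), and without control rat 1 it was 0.21 (adjusted p = 0.591). The other 3 sodium pores, Scn1a, Scn2a and Scn7a, had log2 levels of 9.61 to 10.2, 9.17 to 9.59 and 8.28 to 9.36 over the 16 rats, and none was called.

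Of the calcium channel pores, Cacna1a had the lowest averaged restraint difference of the 28. For Cacna1a the log2 level was 6.34, 6.98, 6.72 and 6.88 in control rats 1 to 4, 6.27, 6.61, 6.48 and 6.57 in the restrained rats, 6.91, 6.67, 6.75 and 6.65 in the linalool rats and 6.32, 6.62, 6.56 and 6.62 in the rats given both. With restraint the difference was -0.25 without linalool (adjusted p = 0.437) and -0.22 with it (adjusted p = 0.419), and -0.23 averaged over odour (SE 0.089, adjusted p = 0.158). The rats given both were all below the linalool rats, whereas restrained and control rats overlapped, control rat 1 lying with the restrained rats. Without the array of control rat 1 the difference without linalool was -0.38 (adjusted p = 0.104), and the averaged difference was -0.30 and was called (adjusted p = 0.0288), the lowest of adjusted p values that reached 0.969 over 28 alternatives. The Cacna1a probe sets below the filter did not go 1 way. With restraint in both odour conditions 1398459_at was higher (means 5.77 in control, 6.18 with restraint, 5.39 with linalool, 5.79 with both). In the same order 1395062_at was lower (6.43, 6.24, 6.14 and 6.09). For 1367822_at and 1386939_a_at the direction differed between odour conditions.

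Cacna1d, an L-type pore that opens at comparatively negative voltages and supports pacemaking, pointed the other way. For Cacna1d the log2 level was 6.42, 7.36, 7.10 and 7.16 in control rats 1 to 4, 6.98, 7.38, 6.98 and 7.17 in the restrained rats, 6.70, 6.86, 6.87 and 6.79 in the linalool rats and 7.02, 7.22, 7.10 and 7.41 in the rats given both. The linalool rats formed a tight group at 6.80 ± 0.08 (SD, n = 4), and all rats given both were above them, by 0.38 (SE 0.16, adjusted p = 0.245). Control rats spanned nearly the whole range, with control rat 1 the lowest of the 16. For averaged restraint the difference was 0.25 (adjusted p = 0.237), and without control rat 1 it was 0.15 (adjusted p = 0.272). On the values as deposited, without normalisation, it was 0.48 and was called (adjusted p = 0.0363), as was that under linalool (0.72, adjusted p = 0.0281); there the median of all probe sets shifted by 0.21 and 0.32. In the other alternatives neither was called, with adjusted p up to 0.402 and 0.477.

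Cacna1c, the other L-type pore of neurons, showed a smaller difference in the same comparison. For Cacna1c the log2 level was 7.52, 7.44, 7.45 and 7.31 in control rats 1 to 4, 7.47, 7.54, 7.24 and 7.53 in the restrained rats, 7.57, 7.34, 7.28 and 7.24 in the linalool rats and 7.50, 7.66, 7.50 and 7.62 in the rats given both. Rats given both were above 3 of the 4 linalool rats, by 0.21 on average (SE 0.091, adjusted p = 0.259), and the control and restrained rats lay between and among them.

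Cacna1h, a T-type pore that opens near the resting potential, was the calcium pore with the largest difference for linalool against control. For Cacna1h the log2 level was 7.08, 6.20, 6.52 and 6.92 in control rats 1 to 4, 6.99, 6.85, 6.97 and 7.04 in the restrained rats, 7.08, 7.14, 6.90 and 7.03 in the linalool rats and 6.85, 7.15, 7.05 and 6.73 in the rats given both. The difference was 0.36 (SE 0.15, adjusted p = 0.453). Control rats 2 and 3 were low and the other 2 control rats lay among the linalool rats. Without control rat 2 the difference was 0.20 (adjusted p = 0.647).

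Cacna1b, the N-type pore that serves transmitter release, had the probe set with the least spread within groups of all 28, 1370444_at, at a residual SD of 0.087. For probe set 1370444_at the log2 level was 8.80, 8.83, 8.84 and 9.10 in control rats 1 to 4, 8.91, 8.89, 8.94 and 8.92 in the restrained rats, 8.92, 8.86, 8.91 and 8.78 in the linalool rats and 8.68, 8.83, 8.79 and 8.68 in the rats given both. The rats given both were all below the restrained rats, by 0.17 (adjusted p = 0.365), and the averaged linalool difference was -0.098 (adjusted p = 0.420). Control rat 4 stood above the rest of its group, and without it the averaged difference was -0.063 (adjusted p = 0.578). The other Cacna1b probe set (1371175_a_at), with a residual SD of 0.22, gave 0.088 (adjusted p = 0.856) and 0.027 (adjusted p = 0.930) in these comparisons, the opposite sign. Cacna1g, the remaining kept T-type pore, ranged from 6.94 to 7.66 over the 16 rats with no call.

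Among the calcium auxiliary genes, Cacna2d1, which encodes the alpha-2-delta protein bound by gabapentin, had the smallest p for restraint against control. For Cacna2d1 the log2 level was 9.35, 8.96, 8.90 and 9.50 in control rats 1 to 4, 9.60, 9.47, 9.70 and 9.49 in the restrained rats, 9.34, 9.37, 9.53 and 9.30 in the linalool rats and 9.29, 9.45, 9.14 and 9.11 in the rats given both. The group means were 9.18 ± 0.29, 9.56 ± 0.11, 9.39 ± 0.10 and 9.25 ± 0.16 (SD, n = 4). Restrained rats were above control rats by 0.39 (SE 0.12, adjusted p = 0.186), with overlap through control rat 4, and above all the rats given both, the difference of the latter from the former being -0.32 (adjusted p = 0.290). Restraint under linalool gave -0.14 (adjusted p = 0.637). The interaction, which asks whether restraint acted differently with and without linalool, was -0.52 (SE 0.18, 95% interval -0.90 to -0.15), the interaction of largest size among the 28, with an adjusted p = 0.496.

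Cacnb1, a beta subunit best known from skeletal muscle and also made in brain, was highest in the rats that inhaled linalool without restraint. For probe set 1387428_at the log2 level was 7.63, 7.43, 7.38 and 7.66 in control rats 1 to 4, 7.37, 7.67, 7.48 and 7.54 in the restrained rats, 7.77, 7.98, 7.87 and 7.80 in the linalool rats and 7.30, 7.61, 7.66 and 7.62 in the rats given both. All 4 linalool rats were above all 12 other rats. Against control the difference was 0.33 (SE 0.099, adjusted p = 0.345), restraint under linalool gave -0.30 (SE 0.099, adjusted p = 0.147), averaged linalool 0.18 (adjusted p = 0.246) and the interaction -0.29 (adjusted p = 0.625). The other Cacnb1 probe set (1378073_at) gave 0.19 for linalool against control (adjusted p = 0.761) and -0.16 for restraint under linalool (adjusted p = 0.730). Its linalool rats spread with an SD of 0.45, and deviations from the group means correlated at r = -0.46 between both probe sets over the 16 arrays.

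Cacng2, which encodes stargazin, an AMPA receptor partner, was named by its p for linalool against control. For Cacng2 probe set 1368759_at the log2 level was 8.65, 9.05, 8.46 and 8.48 in control rats 1 to 4, 8.37, 8.49, 8.32 and 8.48 in the restrained rats, 8.74, 8.39, 8.35 and 8.24 in the linalool rats and 8.26, 8.58, 8.33 and 8.54 in the rats given both. Control rat 2 was the highest of the 16 rats and the groups overlapped. The linalool difference was -0.23 (SE 0.13, adjusted p = 0.588), and without control rat 2 it was -0.098 (adjusted p = 0.818). The other Cacng2 probe set (1375735_at) gave 0.10 (adjusted p = 0.833). The remaining calcium auxiliary probe sets, for Cacna2d3, Cacnb2, Cacnb3 and Cacng3, had residual SDs of 0.13 to 0.28, and none was called.

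Of the sodium auxiliary genes, Scn2b had the smallest p for linalool among restrained rats. For probe set 1396405_at the log2 level was 10.89, 10.44, 10.87 and 10.58 in control rats 1 to 4, 10.60, 10.64, 10.61 and 10.57 in the restrained rats, 10.74, 10.72, 10.61 and 10.85 in the linalool rats and 10.77, 10.93, 10.93 and 10.74 in the rats given both. The restrained rats lay close together at 10.6 ± 0.030 (SD, n = 4), and all rats given both were above them, by 0.24 (SE 0.098, adjusted p = 0.323). The averaged linalool difference was 0.14 (adjusted p = 0.378). The other Scn2b probe set (1369311_at) gave 0.34 for the same comparison with an interval from -0.23 to 0.91, having the largest residual SD of the 28, 0.43. For Scn4b and Scn3b the averaged restraint differences were within 0.14 of 0 and none was called.

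**Figure D3:**
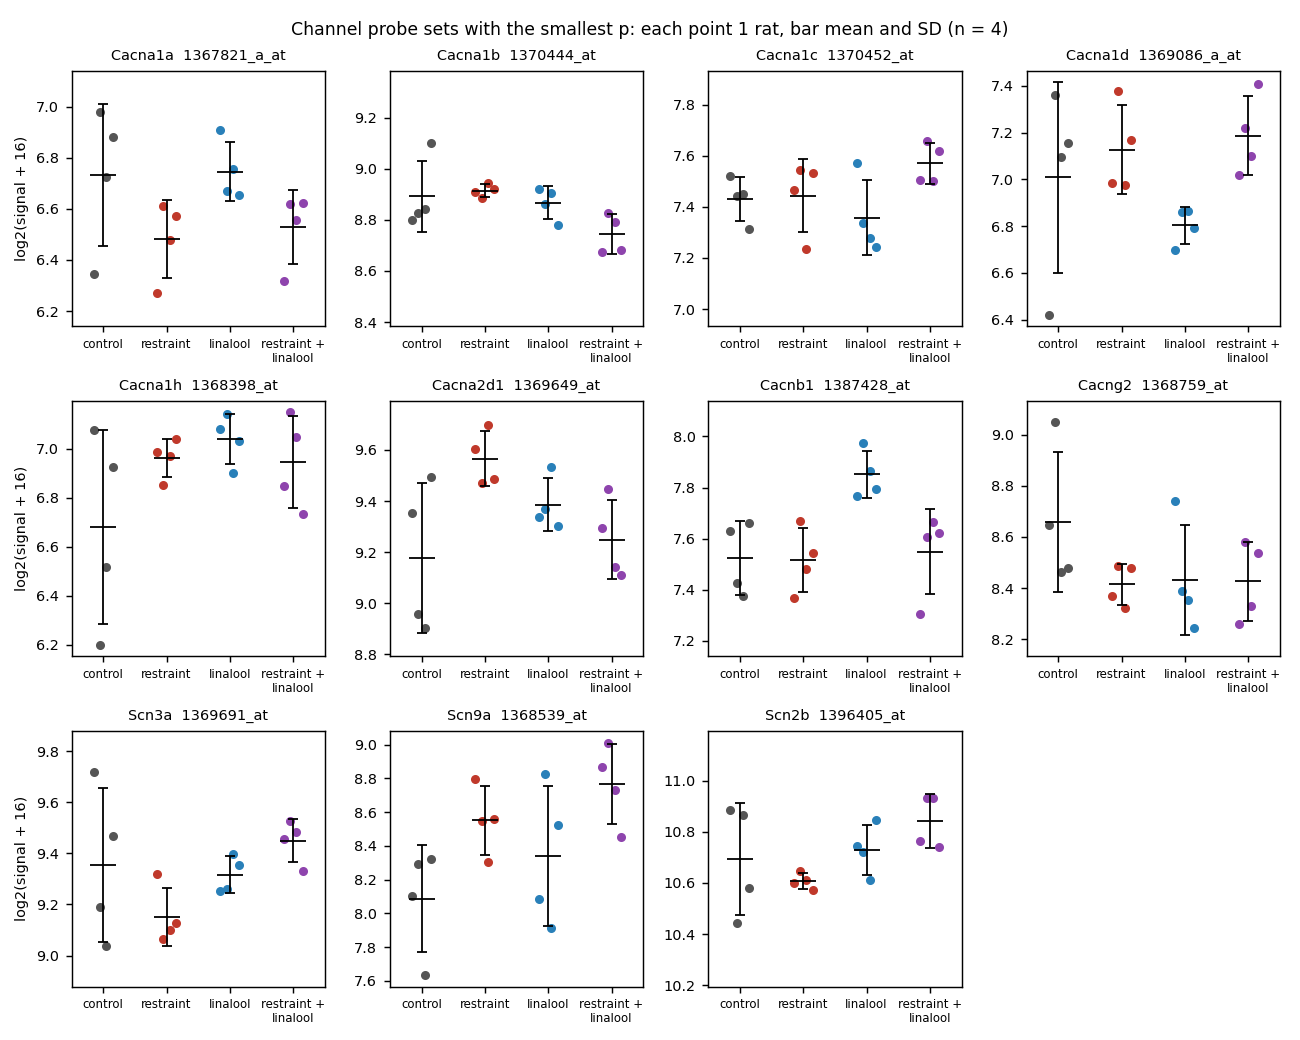
Level of the 11 channel probe sets with the smallest p in some comparison, as log2(signal + 16), 1 point a rat, with the group mean and SD (n = 4); each panel has its own axis. Control rats are spread widely for Cacna1d, Cacna1h and Scn3a, and the linalool rats stand above all others for Cacnb1.

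Separation of whole groups was about as frequent among the channels as in the background. For restraint against control 0 of 28 channel probe sets had groups that did not overlap (5.92% of all kept probe sets). For restraint under linalool there were 3 (10.7%, against 12.3% of all): Cacna1d above, and Cacna1a and Cacnb1 below. For linalool against control there was 1 (3.57%, against 4.74%), Cacnb1, and for linalool among restrained rats 4 (14.3%, against 10.4%), Scn2b and Scn3a above and Cacna1b and Cacna2d1 below.

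Much of the spread of the channel genes lay among the control rats. The control group had the largest SD of the 4 groups in 16 of the 28 probe sets (57.1%), a share near the 49.6% of all kept probe sets. The median SD of the channel probe sets was 0.28 in the control group, against 0.16 with restraint, 0.14 with linalool and 0.15 with both. Over all kept probe sets these medians were 0.19, 0.13, 0.14 and 0.13. The pooled residual SD had a median of 0.20 over the channels and 0.17 over all kept probe sets.

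**Figure D4:**
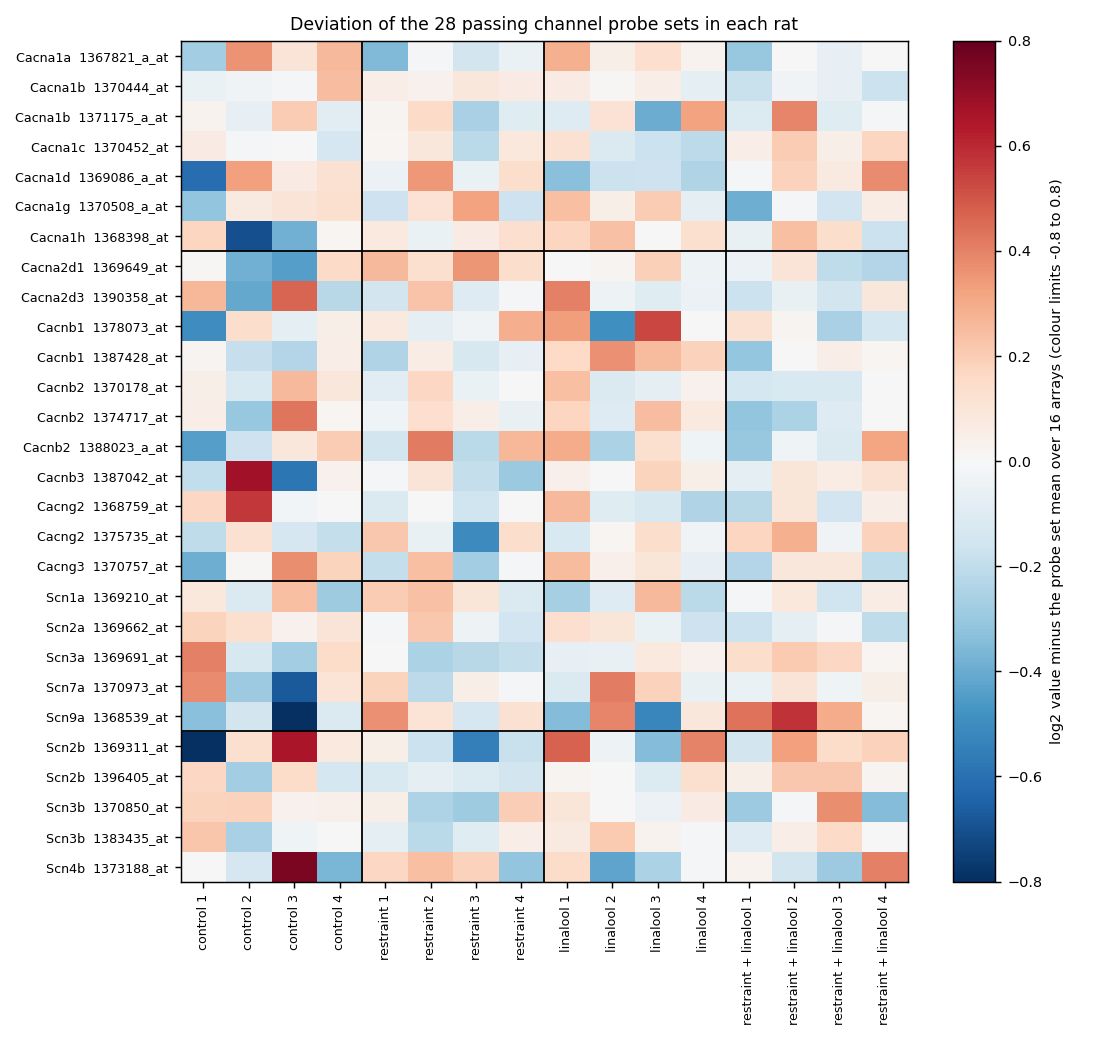
Deviation of each of the 28 kept channel probe sets from its mean over the 16 arrays, on the log2 scale, with rats in columns by group and probe sets in rows by subunit class. The strongest colours stand in the control columns, where the median SD was 0.28, and no group shows 1 colour through a class.

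Probe sets of 1 gene gave a check on the measurement. Over 8 pairs in 6 genes, the correlation of deviations from the group means over 16 arrays was 0.73, 0.67 and 0.48 for the 3 Cacnb2 pairs, 0.46 for Scn3b, 0.31 for Cacng2, 0.0070 for Scn2b, -0.23 for Cacna1b and -0.46 for Cacnb1. These pairs share arrays and RNA, and probe sets can report different transcripts of a gene. Their differences had the same sign in 32 of 56 combinations of pair and comparison.

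The dim probe sets were also fitted without the filter. Then 0 of all 52 channel probe sets were called in any comparison by limma, where 0.329%, 0.606%, 0%, 0.148%, 1.68%, 0.0999% and 0% of all 31042 probe sets were called for restraint against control, restraint under linalool, linalool against control, linalool among restrained rats, averaged restraint, averaged linalool and the interaction. In the same order 5, 6, 4, 3, 4, 2 and 3 channel probe sets were under an unadjusted p of 0.05 (10.1%, 12.6%, 8.47%, 9.71%, 14.4%, 11.1% and 7.13% of all). Of the dim ones, the R-type pore Cacna1e had the largest difference for restraint against control, 0.68 (limma, adjusted p = 0.420). Its group means were 4.48 in control, 5.16 with restraint, 4.58 with linalool and 4.68 with both. The muscle gene Cacng1 gave -0.43 for restraint against control (adjusted p = 0.249), at a mean level of 4.26, close to the lowest the scale allows.

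The proteins that work with these channels were followed through lists of their genes. Of the sodium channel partners, such as ankyrins and fibroblast growth factor homologues, 23 of 27 listed genes were tested, and 0 were called by limma in any of the 7 comparisons, the smallest adjusted p being 0.145. Of the calcium handling genes (stores, pumps and buffers) 23 of 27 were tested with 0 called, the smallest adjusted p being 0.0742. Of the calcium channel partners 24 of 31 were tested, with 1 higher for restraint under linalool and 1 higher for averaged restraint, and none lower. In each case 1 of 24 is 4.17%, beside 1.69% and 4.21% of all kept probe sets, so the counts do not set the list apart. The call for restraint under linalool was Gem, which reached the level filter only through the rats given both, where it was high. It is given below as a description. Gem and the other called gene, Rrad, belong to the RGK family of small GTPases, which are known to bind beta subunits and inhibit voltage-gated calcium channels.

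Rrad rose with restraint averaged over odour by 0.54 (SE 0.13, limma adjusted p = 0.0279). For Rrad the log2 level was 6.77, 6.22, 6.25 and 6.70 in control rats 1 to 4, 7.15, 7.03, 6.44 and 7.40 in the restrained rats, 6.89, 6.53, 6.74 and 6.62 in the linalool rats and 7.55, 7.25, 7.23 and 6.98 in the rats given both. The restraint difference was 0.52 without linalool (adjusted p = 0.237) and 0.56 with it (adjusted p = 0.150). All the rats given both were above all the linalool rats, and 3 of 4 restrained rats were above all control rats. On the 13 arrays with low spike-in signal the averaged difference was 0.48 and was not called (adjusted p = 0.149). Leaving out any of 9 arrays (control rats 2 and 3, restrained rats 1, 2 and 4, linalool rats 2 and 3, and rats 1 and 2 of the group given both) left differences of 0.47 to 0.55 that were not called, with adjusted p from 0.0504 to 0.0631. Over 28 alternatives the adjusted p ranged from 0.00292 to 0.149.

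Gem, the other called partner, lay close to the level filter. For Gem the log2 level was 6.23, 6.45, 6.38 and 6.13 in control rats 1 to 4, 6.30, 6.42, 6.01 and 6.40 in the restrained rats, 4.93, 5.85, 6.41 and 6.02 in the linalool rats and 7.70, 7.01, 6.86 and 6.35 in the rats given both. Rat 1 of the group given both was the highest and linalool rat 1 the lowest, and the groups overlapped through rat 4 of the former and rat 3 of the latter. Among kept probe sets the difference for restraint under linalool was 1.18 (SE 0.27, limma adjusted p = 0.0398). Gem reached the filter only through the rats given both, its mean over the other 12 rats being 6.13 against the 6.26 required, and without the filter it was not called (adjusted p = 0.0781). The call therefore depends on the filter and is given as a description. Restraint without linalool gave -0.020 (adjusted p = 0.985), while the interaction, 1.20, was not called (adjusted p = 0.494). Leaving out any of 10 arrays (control rat 4, restrained rats 1, 2 and 4, linalool rats 1, 2 and 4, and rats 1, 2 and 3 of the group given both) ended the call, with differences of 0.89 to 1.25 and adjusted p from 0.0514 to 0.128. On the low spike-in arrays alone it was 1.30 (adjusted p = 0.157), and over 29 alternatives the adjusted p ranged from 0.000215 to 0.157. Of the other RGK genes, Rem2 gave -0.30 for averaged restraint (adjusted p = 0.130) and Rem1 was below the filter.

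**Figure D5:**
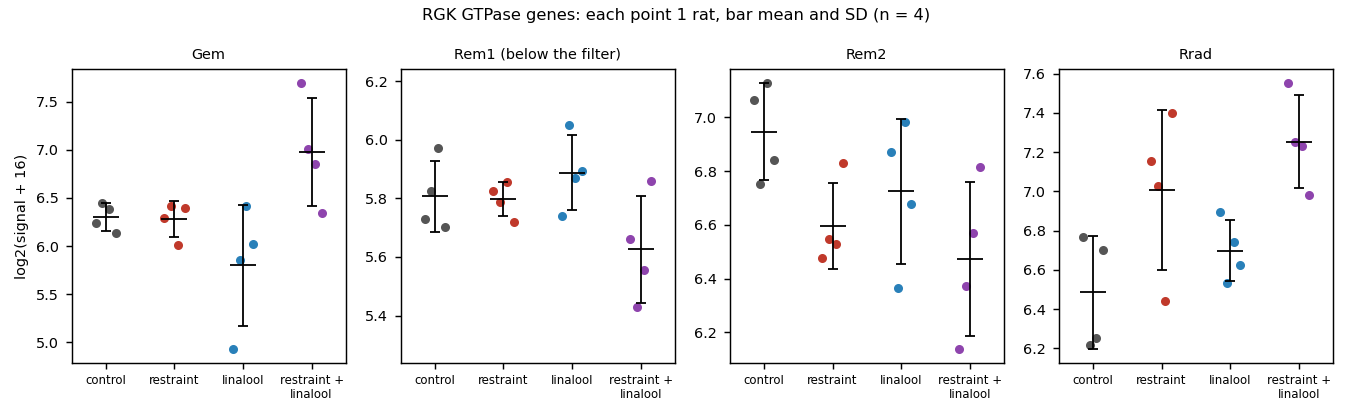
Level of the 4 RGK genes as log2(signal + 16), 1 point a rat, with the group mean and SD (n = 4); each panel has its own axis. Rrad lies higher in both restrained groups, and Gem is high in 3 of 4 rats given both.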

How the data were processed

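The 16 arrays (Affymetrix rat expression arrays, 1 per rat, 4 rats in each of 4 groups by the sample titles) were analysed from the deposited table of linear signal intensity, computed by the authors with MAS5 per the submitters' processing notes; the scaling target and software version are not given in the sources used here. Intensity values were quantile-normalised between arrays, the 57 control probe sets were dropped, and log2(value + 16) was taken, which understates differences of dim probe sets. Probe sets with a mean at or above the 40th percentile were fitted by limma (version 3.58.1, under R 4.3.3; linear model with moderated variances, 1 mean per group, two-sided, Benjamini-Hochberg adjustment over 18625 probe sets). The averaged effects and the interaction use the same 16 arrays, and comparisons that share a group are not independent. The fit was checked on simulated data.

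Gene names came from the platform annotation: 20826 probe sets had 1 symbol, 436 several and 9780 none. Probe sets in the text with values in every rat were the 3 with the smallest p in each comparison. The members, the partner lists, the marker lists and the genes used to check the restraint labels were chosen with earlier results of these data known. Same-numbered rats of different groups deviated together (r over 0.1) in 4 of 24 pairs, all of rats numbered 1 or 2, with r from -0.16 to 0.23. Differently numbered rats were not compared, so this does not settle whether the numbers pair the rats. The main fit did not pair them, and the replicate number entered as a block only as an alternative. Array precision is limited by 4 rats a group. Alternatives covered scaling, pseudocount, filter, spike-in signal, 3'/5' ratio, spread model and each array left out.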

Additional observations from a re-analysis of the deposited data

Results flagged for a closer look

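Of 52 groups of 4 rats looked at (13 probe sets in 4 groups), 2 held a rat far from its group, where chance gives about 1 in 20. For Cacna1b (1370444_at) control rat 4 had a log2 level of 9.10, the nearest control rat being at 8.84. For Cacnb1 (1387428_at) rat 1 of the group given restraint and linalool was at 7.30, the nearest of its group being at 7.61.

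The same 13 probe sets, picked by their small p, were searched for movement in opposite directions. Such a pick favours the pattern, and its share over all kept probe sets was not counted. For 3 channel probe sets the rats of an exposed group were all on 1 side of the mean of their reference group. Those of the matching exposed group were all on the opposite side of theirs. This compares single rats with a group mean, and the groups themselves could overlap. For Cacna2d1 it held for linalool without and with restraint, and the interaction was -0.52 on the log2 scale. For Scn3a and Scn2b (1396405_at) it held for restraint without and with linalool, where the groups overlapped in both odour conditions, and the interactions were 0.33 and 0.20. The interaction was tested for each by limma and passed for none (adjusted p = 0.496, 0.640 and 0.741).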

How the results depend on the processing

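The count of channel probe sets called stayed at 0 in 199 of 207 combinations of comparison and setting. For averaged restraint it became 2 on the values as deposited (Scn9a and Cacna1d), 1 with the spike-in split as a block, 1 on the low spike-in arrays alone and 1 with the replicate number as a block (Scn9a each, adjusted p = 0.0425 for the last), and from 0 to 1 when each array was left out (1 without control rat 1, Cacna1a, and 1 without linalool rat 2, Scn9a). The replicate block changed no other count of channel calls, and it ended the Gem call (adjusted p = 0.0661). For restraint under linalool the count became 2 on the values as deposited, and for linalool among restrained rats 1 once the 3'/5' ratio of beta-actin entered the fit (Scn3a). Of 673 values of single probe sets under an alternative, 636 kept direction and side, 9 became called, 27 lost a call (all of Gem and Rrad) and 1 reversed: Cacnb1 for restraint under linalool, 0.049 on the values as deposited. The cause was not tested. Without normalisation the channel medians were 0.18 for averaged restraint, 0.26 for restraint under linalool and 0.23 for the interaction, beside shifts of all probe sets of 0.21, 0.32 and 0.22. Counts over all kept probe sets ranged from 44 to 259 for restraint against control (168 as reported), 73 to 1103 for restraint under linalool (314), 0 to 2 for linalool against control (0), 0 to 484 for linalool among restrained rats (121), 458 to 1035 for averaged restraint (784), 0 to 357 for averaged linalool (133) and 0 to 14 for the interaction (0). Leaving out control rats 1 and 2 together was added after seeing the data; the channel count stayed at 0 and the Rrad call was lost (0.54, adjusted p = 0.0533). Fits to 2 groups alone were not run for the averages and the interaction. Under the 60th percentile filter Cacna1a, Cacna1d, Cacna1h, Rrad and Gem dropped out, so the Rrad and Gem calls were not tested there. For the 24 dim channel probe sets the signal is close to background, which limits what these arrays show of them.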
